A study of Mus musculus with 5 samples.

Results

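The AP-1 factors described here are 10 mouse genes of the activator protein 1 group, namely Jun, Junb, Jund, Fos, Fosb, Fosl1, Fosl2, Atf3, Batf and Batf3, out of 21887 protein-coding genes. They were listed by name, in a choice made with earlier results of these data known, and all 10 were found by symbol in the gene table. The measurement was H3K27ac, the acetylation of histone H3 at lysine 27 that marks active promoters and enhancers, by ChIPmentation, in which the Tn5 transposase inserts sequencing adapters into immunoprecipitated chromatin. The cells came from mouse bone marrow, were sorted for CD45.2, Kit and Sca1 and against lineage markers, and were labelled HSC/MPP (haematopoietic stem cells and multipotent progenitors). All 4 H3K27ac libraries and the 1 input library carried the label Mll3/4 deleted, for a pair of histone methyltransferases that act mainly at enhancers, and how or when the deletion was made is not given in the sources used here.

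The data were a single list of 22948 peaks deposited for the 4 libraries over the input, in mm10 (GRCm38) coordinates. Its name calls it an overlap and an optimal set, and how the libraries were combined is not described further in the sources used here. Each peak has a position, a summit, a signal value, which is the authors' enrichment of H3K27ac over the background, and a q-value. No value of a single library was present, so no number below has a replicate error, no test between groups was possible, and the order of the signal values of different genes carries no error estimate. The read depth behind the list is unknown. A peak that is missing means that none passed the authors' calling, and not that the mark was absent. The gene table gives no exons, and strand and start were taken from the RefSeq promoter table, which matched 9 of the 10 genes (Fosl1 was the exception).

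AP-1 is a family of dimeric transcription factors with a basic leucine zipper, the part that binds DNA and joins the partners of a dimer. Jun proteins pair with each other or with Fos proteins, whereas Fos proteins need a Jun partner, and ATF3 and the BATF proteins also pair with Jun proteins. Jun, Junb, Fos, Fosb and Atf3 are immediate-early genes, which are transcribed within minutes of a growth factor, cytokine or stress signal without new protein synthesis. Jund is expressed more steadily, Fosl1 and Fosl2 respond later, and Batf and Batf3 are best known for their roles in lymphocytes and dendritic cells.

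H3K27ac peaks lay at the ends of all 3 Jun genes and of Fos and Fosb, and at no end of Fosl1, Fosl2, Atf3, Batf or Batf3. A peak counted as at an end when it overlapped the 1 kb on either side of the first or last base of the gene. That made 5 of 10 AP-1 genes, against 36.2% of all protein-coding genes, and with so few genes nothing particular to the group is read from the count. By subfamily the numbers were 3 of 3 Jun genes, 2 of 4 Fos genes and 0 of 3 among Atf3, Batf and Batf3. Of the immediate-early members 4 of 5 had such a peak, with Atf3 the exception, and of the other members 1 of 5, which was Jund. A peak overlapped the body of 6 of 10 members, the same 5 and Batf, against 41.3% of protein-coding genes. A peak lay in the body or within 100 kb of it for 9 of 10, against 77.0%. Fosl2 had none.

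**Figure D1:**
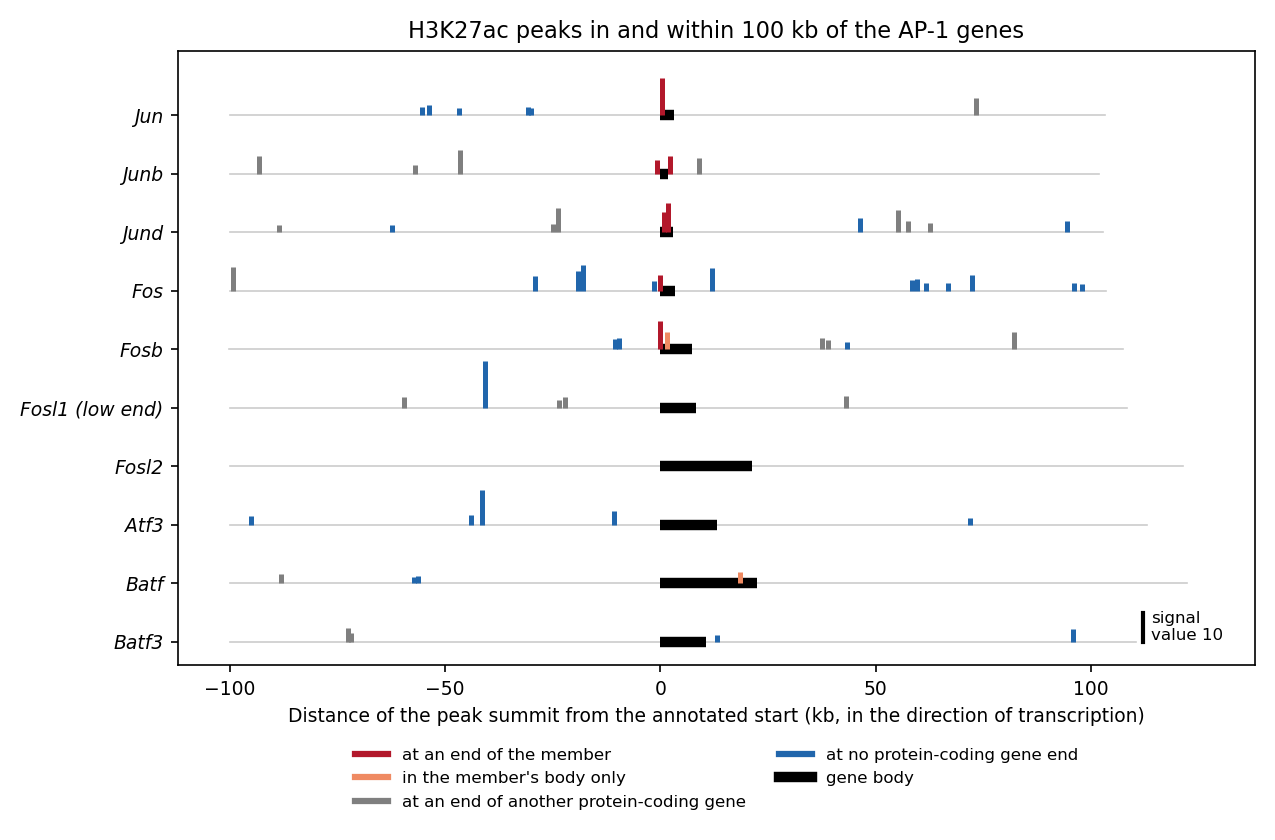
H3K27ac peaks around the 10 AP-1 genes. The horizontal axis is the distance of the peak summit from the annotated start in kb, read in the direction of transcription (for Fosl1, whose strand was not used, from its low end towards higher coordinates), each vertical bar is a peak with its height proportional to the signal value, and the colour gives its place. Peaks at an end of the gene are seen at Jun, Junb, Jund, Fos and Fosb, strong peaks at a distance at Fosl1 (15.98) and Atf3 (11.8), and no peak at Fosl2.

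The starts of the 4 immediate-early genes with a peak, and that of Atf3, are shown because they differ in how the peaks lie over them. Each sequence is the 250 bases before the annotated start in RefSeq for GRCm38.p6, read 5′ to 3′ on the gene's strand. The windows are chr4:95052223-95052472 (minus strand) for Jun, chr12:85473640-85473889 (plus) for Fos, chr7:19310046-19310295 (minus) for Fosb, chr8:84978749-84978998 (minus) for Junb and chr1:191183334-191183583 (minus) for Atf3. All 250 bases were inside a peak at Jun, Fos and Fosb. At Junb 0 of the 250 were, as the window fell in a gap between flanking peaks, and at Atf3 0 were, with no peak nearby. Capitals mark matches to short motifs, which are CCAAT, TGACATCA and the MEF2 site in Jun, TGACG and TATAAA in Fos, TGACG in Fosb, TGACG and CCAAT in Junb, and the MEF2 site and TTACGTCA in Atf3.
Jun: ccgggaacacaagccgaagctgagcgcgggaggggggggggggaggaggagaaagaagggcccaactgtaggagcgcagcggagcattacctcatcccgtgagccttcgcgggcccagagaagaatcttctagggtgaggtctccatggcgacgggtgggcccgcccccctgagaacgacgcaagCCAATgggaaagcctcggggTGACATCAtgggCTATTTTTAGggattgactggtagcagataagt
Fos: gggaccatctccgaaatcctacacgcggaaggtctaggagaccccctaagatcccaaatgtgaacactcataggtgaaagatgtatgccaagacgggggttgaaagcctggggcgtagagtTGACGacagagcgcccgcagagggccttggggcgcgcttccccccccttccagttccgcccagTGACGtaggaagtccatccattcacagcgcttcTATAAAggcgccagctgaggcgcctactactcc
Fosb: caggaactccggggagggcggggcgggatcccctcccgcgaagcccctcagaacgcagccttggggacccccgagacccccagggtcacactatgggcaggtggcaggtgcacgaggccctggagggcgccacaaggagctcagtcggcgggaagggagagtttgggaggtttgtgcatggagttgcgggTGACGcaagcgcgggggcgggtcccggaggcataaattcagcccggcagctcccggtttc
Junb: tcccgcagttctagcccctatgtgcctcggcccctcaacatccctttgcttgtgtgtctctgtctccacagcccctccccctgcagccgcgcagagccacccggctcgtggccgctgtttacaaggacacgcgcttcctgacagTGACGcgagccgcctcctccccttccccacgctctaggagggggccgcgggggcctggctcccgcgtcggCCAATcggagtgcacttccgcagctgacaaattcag
Atf3: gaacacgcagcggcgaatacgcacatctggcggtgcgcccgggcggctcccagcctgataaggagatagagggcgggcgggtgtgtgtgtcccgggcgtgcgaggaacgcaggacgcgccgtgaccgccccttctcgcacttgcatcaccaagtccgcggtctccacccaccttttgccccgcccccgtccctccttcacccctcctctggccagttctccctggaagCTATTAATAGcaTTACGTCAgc

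Motifs were searched on both strands from 250 bases before to 50 after each start, in 9 members and in all 21263 starts of protein-coding genes. The variant AP-1 site TGACATCA, which is known from the Jun promoter as the site of its own regulation, was found in Jun from -45 to -38 and in no other member, and 3.66% of all starts held it. The MEF2 site, the target of the MEF2 factors, was found in Jun from -33 to -24 and in Atf3 from -22 to -13, against 0.489% of all starts. TTACGTCA, a form of the cyclic AMP response element, was found in Atf3 from -10 to -3, against 0.531%. These are matches of letters in a window and say nothing of binding.

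The shorter motifs were common. TATAAA, the core of the TATA box, was found at Fos from -33 to -28 and at Junb from 1 to 6, thus just after the annotated start, and in 12.6% of all starts. TGACG, the half-site of the cyclic AMP response element, was found in Atf3, Fosb, Junb, Fos and Batf, against 23.6%, and its match in Atf3 lies inside TTACGTCA. CCAAT was found in Jun, Junb and Atf3 (38.2% of all starts), the Sp1 motif GGGCGG in 7 of the 9 members (46.2%) and the ETS core CCGGAA in Batf (18.7%). No member window held the CArG box, the site of serum response factor (1.52% of all starts). None held the full element TGACGTCA (2.23%) or the AP-1 site TGAGTCA, whose other strand reads TGACTCA (4.66%). Sequence outside the windows was not searched, so whether a member has any of these sites farther upstream was not tested. Some motifs occurred in members with and without an end peak. TGACG was found in Fos, Fosb and Junb, which had one, and in Atf3 and Batf, which had none. TGACATCA and TATAAA were found only in members with an end peak, and TTACGTCA and CCGGAA only in members without, in at most 2 members each.

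Jun encodes c-Jun, the partner common to most AP-1 dimers, and it had the strongest peak at an end of any member. A single peak at chr4:95050263-95053426 covered its start, 3164 bp wide, with a signal value of 12.5 and a -log10 q-value of 50.7. Its summit lay 257 bp after the start. It ranked 146 by signal value among all peaks of the list, and the value stood at percentile 98.5 among the strongest end peaks of the 7929 genes that had one, whose median was 4.71. Of the gene with its 1 kb flanks 2960 bp were covered, percentile 81.0 among genes with any coverage, whose median was 1476 bp. As a share this was 57.1%, at percentile 98.7, in a gene of 3187 bp.

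The other 6 peaks around Jun were weaker. Upstream, 5 of them fell between -29.9 and -55.5 kb, inside Junos, the long non-coding RNA gene that starts beside Jun and runs the other way, and had signal values from 2.45 to 3.36 and widths from 263 to 1468 bp. None of these 5 reached -log10 q of 5, and 3 had a q-value of at most 0.05. Downstream, a peak of 5.85 lay 69.4 kb from the gene at an end of Mysm1. The 100 kb on either side of Jun thus held 7 peaks, of which the promoter peak was the only one with a signal value above 6.

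Junb encodes JunB, a Jun protein that restrains growth and is known to limit expansion of blood stem and progenitor cells. It was flanked rather than covered at its start. A peak at chr8:84975795-84978707 (signal value 5.998, 2913 bp wide) ended 40 bp short of the start on the gene's side, ran over the whole remaining gene and had its summit at 2319 bp, past the far end of the 1840 bp gene. A second peak at chr8:84979045-84980038 (4.50, 994 bp) began after a gap of 337 bp, with its summit at -912 bp. The first of these peaks also reached the 1 kb window of Prdx2, the next gene, which encodes a peroxiredoxin.

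Such a start, not covered but with peaks within 1 kb on both sides, was uncommon. It was found for 13.5% of the 7957 protein-coding starts with a peak within 1 kb, whereas 50.8% of them were covered. The peaks covered 3503 bp of Junb with its flanks, percentile 84.7 among genes with any coverage. As a share this was 91.2%, the highest of the group and percentile 99.7, in a gene of only 1840 bp, and the share depends on gene length. The signal value was moderate in comparison, at percentile 69.3 among genes with an end peak. The other 4 peaks within 100 kb were all at ends of neighbours, the strongest (8.12) shared by Get3 and Trir.

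Jund encodes JunD, the most steadily expressed Jun protein. It had 2 peaks, both inside the gene, at chr8:70697797-70698852 (signal value 6.76, 1056 bp) and chr8:70699051-70700441 (10.0, 1391 bp), separated by 198 bp. Their summits lay 831 and 1728 bp after the annotated start, and the second peak also reached the window of Iqcn at the far end. The first peak began 57 bp after the start and no peak lay within 1 kb before it, so Jund was the only Jun gene with acetylation called on the gene's side alone. Starts of this kind made up 27.5% of all starts with a peak within 1 kb. The strongest value stood at percentile 94.1, second in the group after that of Jun.

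Fos encodes c-Fos, the classical immediate-early partner of c-Jun. Its start was covered by a peak at chr12:85473116-85474984 1869 bp wide, with a signal value of 5.29, a -log10 q-value of 10.6 and a summit at -99 bp. This is the lowest value among the 5 members with an end peak, at percentile 59.9. A small peak of 385 bp (3.27) lay 1154 bp before the gene, just outside the 1 kb window.

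Many peaks surrounded Fos. It had 14 peaks in or within 100 kb, the most of any member and percentile 97.4 among protein-coding genes, whose median was 3. Jund came next with 11, at percentile 94.2. The order depended on the window, as Fos had 6 peaks within 50 kb, where Fosb had 7 and Jund 5. The number for Fos within 100 kb was 8 at either a -log10 q-value of at least 5 or a signal value of at least 4. Of the 14 peaks, 12 were at no end of a protein-coding gene, and 4 of the 12 were stronger than the peak at the start. The strongest, at -18.0 kb, had a signal value of 8.72, and its neighbour at -19.1 kb had 6.70, both over the non-coding RNA gene Gm38543. The peak at 11.9 kb, beyond the far end of the gene, had 7.84, and the peak at 72.4 kb, the widest with 2712 bp, had 5.42. The other 8 ranged from 2.30 to 5.14. At Jun, Jund and Fosb, by contrast, 0 of 5, 0 of 3 and 0 of 3 such peaks exceeded the strongest peak at the gene.

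The peaks around Fos lay on both sides. The 97.2 kb between the windows of Tmed10 and Fos held 4 peaks, and the 119.4 kb between Fos and Jdp2 held 8, of which 5 had a q-value of at most 0.05. Jdp2 encodes a repressor that pairs with Jun proteins, and the same stretch of chromosome 12 continues to Batf. The 44.8 kb between Jdp2 and Batf held 0 peaks. Which gene the peaks between Fos and Jdp2 act on, if any, was not tested.

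Fosb encodes FosB, the close relative of c-Fos. Its start was covered by a peak at chr7:19308858-19310928 2071 bp wide, with a signal value of 9.80, a -log10 q-value of 33.3 and a summit at -90 bp. A second peak of 567 bp (5.81) lay in the body with its summit at 1555 bp, after a gap of 188 bp. The strength of the start peak stood at percentile 93.4, far above that of Fos (5.29), although Fos had more peaks within 100 kb. Upstream, a wide but weak peak of 3083 bp (3.75) lay at -9.56 kb with a narrower one (3.58) at -10.6 kb, and 3 of the 8 peaks within 100 kb were at ends of Vasp and Opa3.

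**Figure D2:**
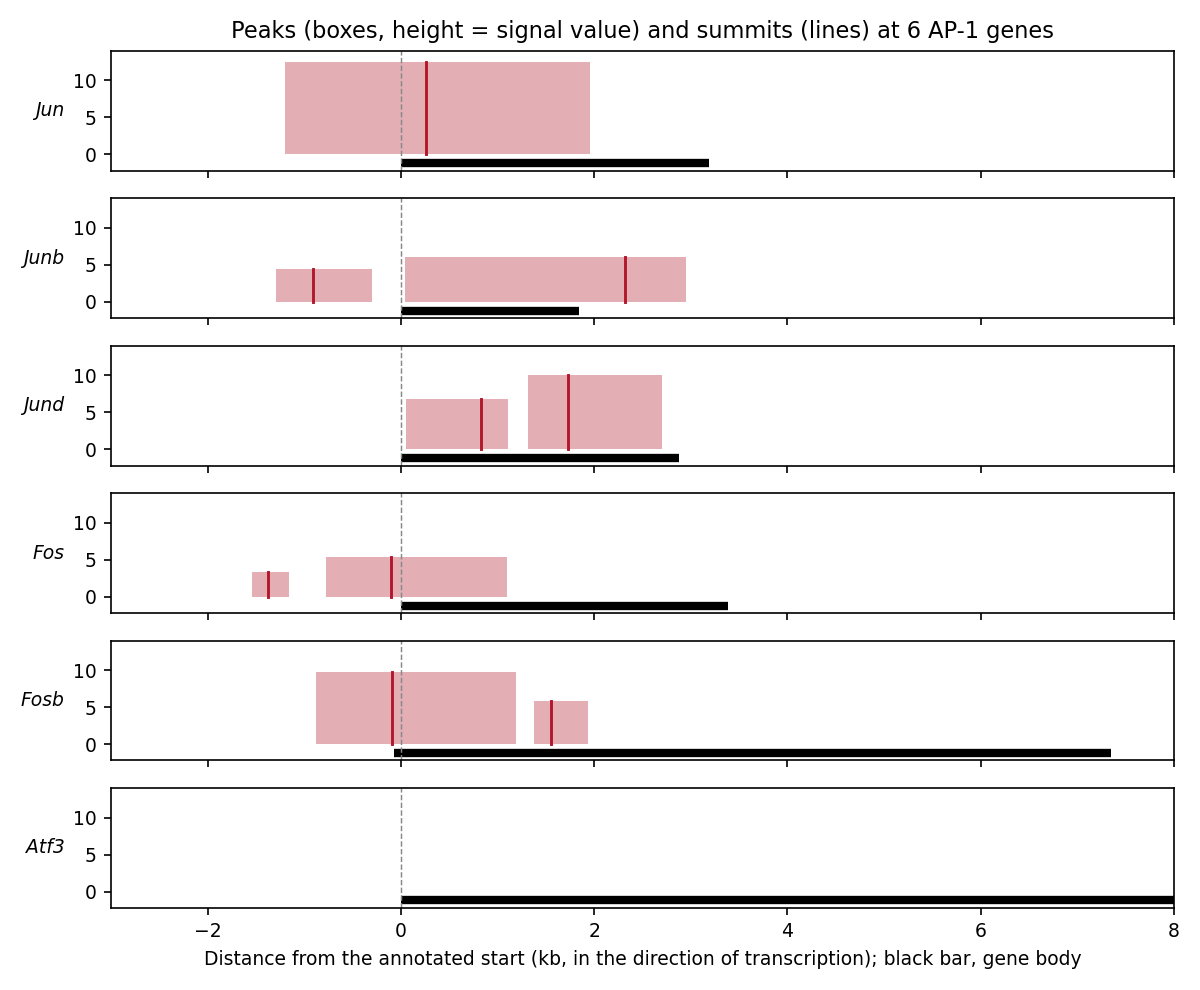
Peaks at the 5 AP-1 genes with a peak at an end, and at Atf3. The horizontal axis is the distance from the annotated start in kb in the direction of transcription, the vertical axis the signal value, boxes span the peaks, lines mark summits, and black bars are gene bodies (that of Atf3 runs on past the axis). Peaks cover the start at Jun, Fos and Fosb, flank it at Junb, lie after it at Jund and are missing at Atf3.

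The annotated start was inside a peak at 3 of 9 members, against 19.0% of all protein-coding starts. At the 5 members with an end peak, the strongest values ran from Jun (12.5) through Jund (10.0), Fosb (9.80) and Junb (5.998) to Fos (5.29). Their median of 9.80 compares with 4.71 over all genes with an end peak, and all 5 lay above that median. Widths followed another order. The widest peak measured 3164 bp at Jun, 2913 bp at Junb, 2071 bp at Fosb, 1869 bp at Fos and 1391 bp at Jund, against a median of 1139 bp over genes with a peak at an end or in the body. Jund had the second strongest peak and the narrowest of these single peaks, and Junb one of the widest and a moderate one. At Jund the called acetylation was split into 2 peaks with a gap of 198 bp. Together they covered 2447 bp, against 1869 bp at Fos.

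**Figure D3:**
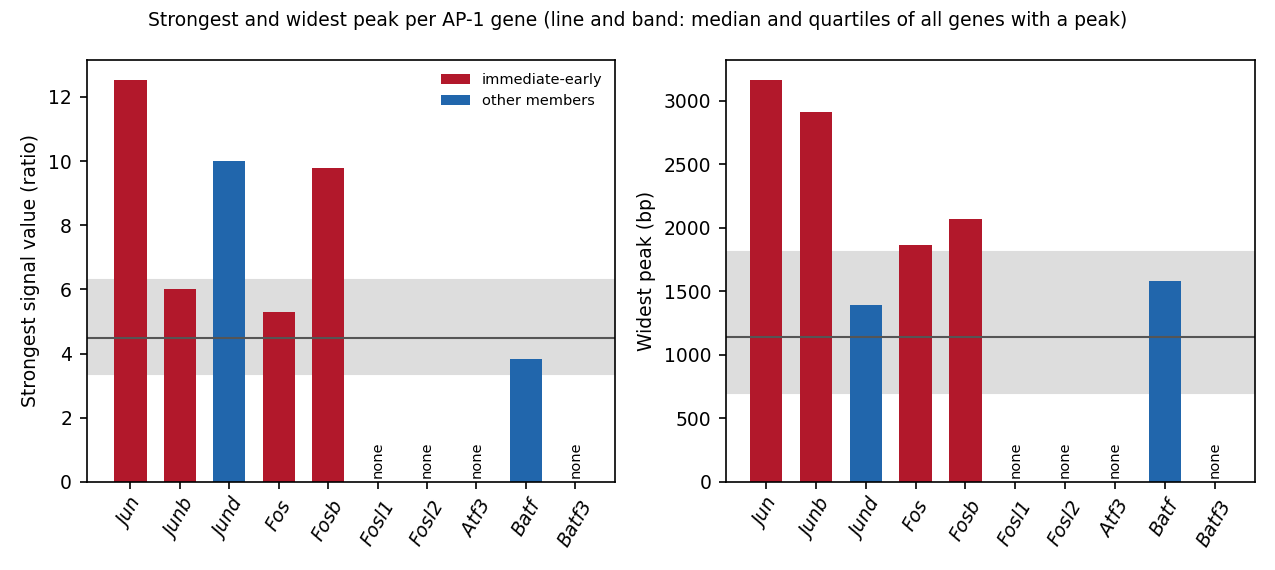
Strongest signal value (left, a ratio to background) and widest peak in bp (right) at an end of each AP-1 gene, or in the body for Batf, which has no end peak. Red bars are immediate-early genes and blue bars the other members, the line and grey band are the median and quartiles of all 9587 protein-coding genes with such a peak, and "none" marks genes without one; Jun is highest in both panels.

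Immediate-early and other members were compared by peak number, width and signal value, as a description of 5 genes against 5. The median number of peaks in or within 100 kb was 7 for the immediate-early genes (range 5 to 14) and 4 for the others (0 to 11), against 3 over all protein-coding genes. The ranges overlapped, with Jund at 11 above 4 of the 5 immediate-early genes. Its place depended on the setting. Within 50 kb Jund had 5 peaks, below Fosb (7) and Fos (6) and above Jun (4), Junb (4) and Atf3 (3). Within 100 kb at a -log10 q-value of at least 5 it also had 5, level with Junb and below Fos (8). The median of bases covered over the gene and its 1 kb flanks was 2638 bp for the immediate-early genes (0 to 3503 bp) and 0 bp for the others (0 to 2447 bp), so these ranges overlapped too. Among members with a peak at an end or in the body, the median of the widest peak was 2492 bp for 4 immediate-early genes and 1485.5 bp for 2 others, Jund (1391 bp) and Batf (1580 bp). The strongest end peak of Jund (10.0) was higher than those of Fosb, Junb and Fos, so signal value did not separate the classes.

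Atf3 encodes a stress-induced member of the ATF family and was the immediate-early gene without any peak at its ends or in its 13038 bp body. Its nearest peak, 997 bp wide with a signal value of 4.56, lay 10.5 kb from the gene, at -10.8 kb. A much stronger peak at chr1:191223193-191226776 lay at -41.3 kb, 3584 bp wide, with a signal value of 11.8, a -log10 q-value of 45.1 and rank 220 in the list. It overlapped the non-coding RNA gene D730003I15Rik and no end of a protein-coding gene. The strength of this distant peak was close to that at the start of Jun (12.5), while Atf3 had none at its annotated ends or in its body. Only the annotated start of Atf3 was used, and whether this peak lies at another start of the gene was not tested.

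Batf3, which is required for a class of dendritic cells, lies next to Atf3 on chromosome 1 and had no peak at an end or in its body. The nearest, 828 bp wide with a signal value of 2.47 and a -log10 q-value of 1.45, lay 2.07 kb beyond its far end, and it was the only peak in the 59.4 kb between the windows of both genes. That peak and the one of 4.56 near Atf3 fell in the 100 kb windows of both genes, so they were counted for each. The remaining 2 peaks near Batf3 were at an end of Flvcr1.

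Batf, which acts with IRF factors in activated lymphocytes, had a peak in its body only. It lay at chr12:85704590-85706169, 18.6 kb after the start, 1580 bp wide, with a signal value of 3.82 and a -log10 q-value of 5.75. The peak covered 6.48% of the gene with its flanks. The other 3 peaks within 100 kb were at the start or in the body of Jdp2, with signal values from 2.23 to 3.30.

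Fosl1, encoding Fra-1, had no peak at its ends or in its body, and its nearest peak lay 21.6 kb away at Drap1 and AI837181. The strongest peak in any member's window was here, at chr19:5405469-5408979, with a signal value of 15.98, a -log10 q-value of 73.5 and rank 31 of the list. It lay 38.7 kb from the gene over the non-coding RNA gene 4930481A15Rik, and between it and Fosl1 lie the peaks at Drap1 and AI837181. The other 4 peaks were at ends of protein-coding neighbours, among them Sart1 and Cfl1, and ranged from 2.66 to 4.13.

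Fosl2, encoding Fra-2, was the only member with no peak within 100 kb. The nearest, a peak of 244 bp with a signal value of 2.14, lay 179.5 kb from the gene. Of all protein-coding genes 23.0% had no peak within 100 kb, and 17.2% were farther from a peak than Fosl2, so such a gap is common in the list.

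In all, 62 different peaks lay in or within 100 kb of the members, 2 of them in the windows of more than 1 member. Of these, 7 were at an end of a member, 2 only in a member's body, 22 at an end of another protein-coding gene and 31 at no such end. The median signal value was 6.76 for the 7 at member ends, 3.77 for the 22 at other gene ends and 3.36 for the 31 distal peaks, of which 12 belonged to Fos. Over all peaks of the list the median was 3.27. A q-value of at most 0.05 was attached to 53 of the 62, and to 23 of the 31 distal ones, against 18089 of the 22948 peaks of the whole list, so that these shares lie near that of the list.

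The base composition before the start did not follow the presence of a peak within this group. The ratio of observed to expected CpG dinucleotides in the 250 bases before the start was 0.919 for Atf3, 0.919 for Batf3 and 0.893 for Fosl2, the 3 highest of the 9 members, and none of these 3 had a peak at an end. It was 0.762 for Junb, 0.705 for Fos, 0.676 for Jun and 0.660 for Fosb, which all had one. Jund had the lowest ratio, 0.213, with a peak, and Batf had 0.526 without. Among all protein-coding starts, 62.5% of those with a ratio of 0.6 or more had a peak within 1 kb, against 17.1% of those below. Atf3, Batf3 and Fosl2 were thus CpG-rich starts without a peak, which is the less frequent state, and Jund the reverse.

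**Figure D4:**
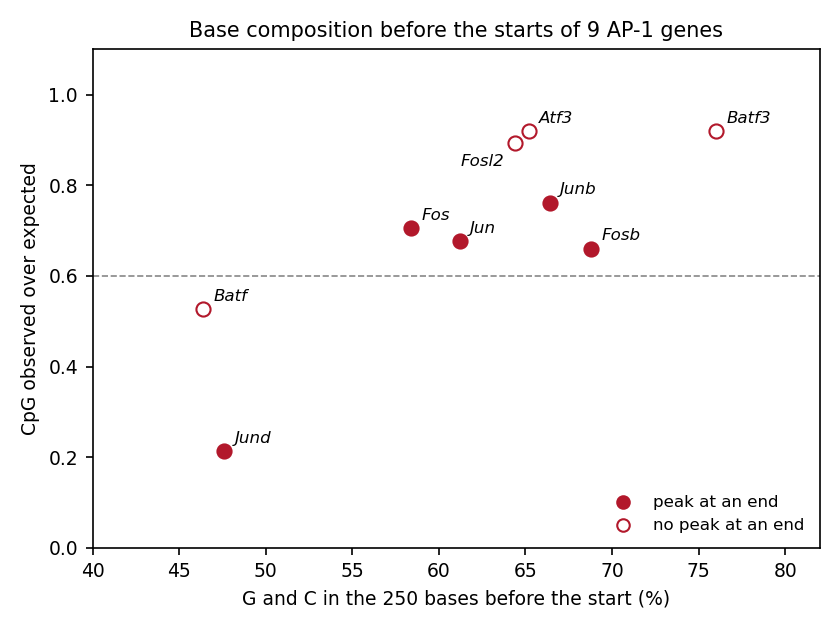
Base composition before the starts of 9 AP-1 genes. The horizontal axis is the share of G and C in the 250 bases before the start in percent, the vertical axis the ratio of observed to expected CpG, filled points have an H3K27ac peak at an end, open points have none, and the dashed line is at 0.6. The 3 points with the highest CpG ratio (Atf3, Batf3, Fosl2) are open and the lowest (Jund) is filled.

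Genes that act with AP-1 were read from 4 lists. Of 20 other immediate-early genes, 15 had a peak at an end, the strongest at Btg1 (13.4), a growth restraining factor, Klf6 (12.6), a zinc finger factor, and Zfp36 (11.5), which promotes decay of AU-rich messages. The 5 without were Egr2, Egr3, Ier3, Nr4a1 and Socs3. The median of the strongest value per gene in this list was 8.48, above the 4.71 of all genes with an end peak. Atf3 was thus not alone among immediate-early genes in lacking an end peak.

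Of 22 further leucine zipper factors that pair with AP-1 proteins or are related to them, 17 had an end peak, led by Crem (13.3), Atf4 (12.6) and Ddit3 (8.72). Batf2, Atf6, Mafg and Nfe2 were among those with none. Among the kinases upstream of AP-1 the number was 12 of 17, among them Map3k7 (7.65), which encodes TAK1, and Mapk9 (7.31), which encodes JNK2. Mapk10, Map2k3, Map2k6, Map3k1 and Map3k5 had no end peak, although Map3k5 had 14 peaks in its body.

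Of serum response factor and its partners 5 of 6 had an end peak, with Elk4 (10.9) the strongest, Mrtfa (6.18) and Elk3 (3.98) next, and Elk1 without. Srf itself had a weak peak of 2.88, at percentile 10.7. Each of the 4 lists lay above the share of all protein-coding genes (36.2%), and AP-1 itself, with 5 of 10, had the lowest share of the 5 groups. The lists were chosen with results of these data known, and their differences were not tested.

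**Figure D5:**
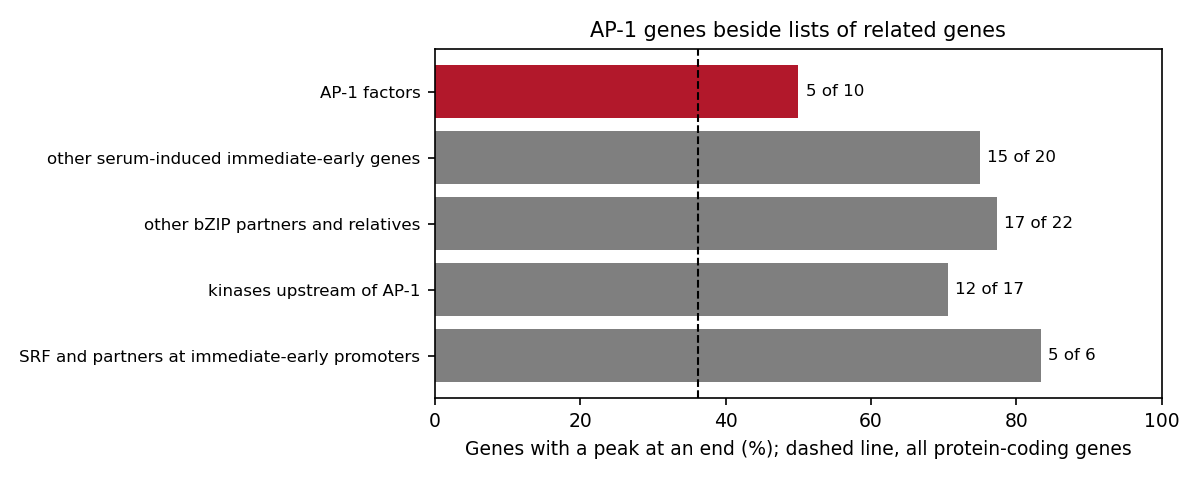
Share of genes with an H3K27ac peak at an end, in percent, for the AP-1 factors (red) and 4 lists of related genes (grey), with the numbers beside the bars. The dashed line is the share among all protein-coding genes, 36.2%, and the AP-1 bar (5 of 10) is the shortest of the 5.

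The label of the cells was checked on marker genes. Of 8 genes of lineage-negative, Sca1-positive, Kit-positive progenitors, 5 had an end peak, among them Kit and Flt3, whereas Ly6a (which encodes Sca1), Cd34 and Spn had none. Of 5 long-term stem cell genes 1 did (Slamf1), of 6 B-lineage genes 6, of 5 T-lineage genes 1 (Cd3d), and of 7 mature myeloid, 6 erythroid and megakaryocyte and 6 non-blood genes 0 each, against 36.2% of all protein-coding genes. End peaks at all 6 B-lineage genes, at 1 of 5 stem cell genes and at neither Ly6a nor Cd34 go against the label HSC/MPP in part. Those at Kit, Flt3, Ptprc, Cd48 and Cd27, which are 5 of the 8 progenitor genes, do not. Their strongest end values ran from 2.45 at Cd48, in a peak of 347 bp at percentile 2.03, to 10.8 at Ptprc. Whether these 5 genes had their peaks in HSC/MPP or in B-lineage cells was not tested. Away from the ends, Spn had a body peak of 4999 bp, and Kit had 16 body peaks and 18 within 100 kb. Ly6a and Cd34 had no body peak, with 18 and 3 peaks within 100 kb. Among the B-lineage genes, Ebf1 had 54 body peaks and 72 within 100 kb, and Pax5 had 31 and 33. The other B-lineage genes had 1 body peak each and from 5 to 13 within 100 kb. All 8 progenitor, 5 stem cell, 6 B-lineage and 5 T-lineage genes had a peak within 100 kb, against 77.0% of all protein-coding genes. So did 6 of 7 mature myeloid, 4 of 6 erythroid and megakaryocyte and 4 of 6 non-blood genes. A peak within 100 kb thus did not set the progenitor or stem cell genes apart. The strongest end peaks of the B-lineage genes had signal values from 2.69 to 12.4, against 5.29 to 12.5 at the 5 AP-1 genes with one. The part that cells of each kind have in the AP-1 peaks was not tested.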

How the data were processed

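The authors deposited 1 narrowPeak list for 4 H3K27ac ChIPmentation libraries over 1 input library. BWA, MACS2 and mm10 are named in the submitters' processing notes, without versions. The list has no header, and its columns were read in the narrowPeak order. The deposited signal value is taken as the authors' enrichment ratio, and the deposited p and q columns as the authors' −log10 p and −log10 q. The deposited score equals 10 times the −log10 p without its decimals, up to a ceiling of 1000, in all but 9 lines. The name of the deposited list calls it an overlap and an optimal set of peaks; the rule behind these words, and any other filter, are not given in the sources used here. The lowest −log10 p was 2.01, and 21.2% of peaks had a q-value above 0.05, so weak peaks are included.

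Coordinates are 1-based. Genes, starts and sequences came from RefSeq tables of GRCm38.p6. Overlap of at least 1 base was computed in Python 3.11.15 with pandas 2.3.3 and tested on simulated data. Percentiles count ties at their midpoint. Members, lists and windows were chosen with earlier results of these data known. All members are named, and from each list the 3 strongest genes and those without an end peak if at most 6, except that some genes under this rule are not reported here. The MEF2, TGACG and TTACGTCA motifs were added after the promoters had been seen.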

Additional observations from a re-analysis of the deposited data

How the results depend on the processing

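Of 30 recomputed summary values 27 stayed within 1.5 times the value under the settings used in the results. For strength and covered bases these are medians over the 6 members with a peak at an end or in the body, thus with Batf. The median of the strongest signal value was 7.90, and 5.998 with ends of 2.5 kb, where Batf3 entered it. That of covered bases was 2542.5 bp, and 2447 bp with flanks of 2.5 kb, again with Batf3. The number of AP-1 genes with an end peak was 5 in each of 3 stricter lists (q-values up to 0.05; a −log10 q minimum of 5; a signal minimum of 4), each time Jun, Junb, Jund, Fos and Fosb, while the share over all protein-coding genes fell to between 23.2% and 34.4%. It was 5 by summit and, in an alternative added after the data were seen, at annotated starts alone. It was 6 with 2.5 kb, where Batf3 was added, and a wider window can only raise this number for any group of genes. The number with a peak in the body fell from 6 to 4 when the summit had to lie in the body. For the summit, start and 2.5 kb settings no share over all protein-coding genes is given here. Nothing about the group is therefore read from these numbers. The number of distinct peaks within 100 kb moved most. It was 62 in the full list, 31 at the −log10 q minimum, 28 at the signal minimum and 35 within 50 kb, since fewer peaks were counted. Of 113 single-gene values 25 moved by more than 1.5 times, and Batf lost its only body peak at the signal minimum. Single libraries could not be left out, as their values are not separate in it. No paired analysis was possible because no column belongs to a single replicate. The depth is unknown, so weak H3K27ac at Atf3, Fosl1, Fosl2 or Batf3 may have been missed.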
